A study of Mus musculus with 4 samples.

Results

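MS4A genes encode small proteins that cross the cell membrane several times and sit beside immune receptors. The family is named after Ms4a1, which encodes the B cell antigen CD20, and Ms4a2, which encodes the beta chain of the high-affinity IgE receptor of mast cells and basophils. In humans, variants at the MS4A locus are linked to the amount of soluble TREM2, the shed form of a lipid-sensing receptor of myeloid cells. The genes described here are 7 family members known from myeloid cells, Ms4a3, Ms4a4a, Ms4a4c, Ms4a6b, Ms4a6c, Ms4a6d and Ms4a7. They were chosen by name, with earlier results of these data known, and all 7 were among the 17476 genes of the count table. All 7 also passed the filter on low counts.

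RNA was measured in 4 libraries of myeloid-derived suppressor cells (MDSCs), immature myeloid cells known for holding back T cell responses. There were 2 Trem2 mutant libraries, called Trem2 mutant 1 and Trem2 mutant 3 after their column names, and 2 wild-type libraries, WT 1 and WT 2. Per the labels, MDSCs were grown in culture from bone marrow of TREM2mut or C57/BL6 mice, and all samples carry the strain label C57BL/6. The hosts were male NRG mice, which have no lymphocytes of their own but keep myeloid cells. They had been challenged under the skin with TRAMP-C1 cells, a mouse prostate cancer line, at an age of 6 weeks. The injection came 4 weeks later, and tumours were taken 6 h after it and digested for 45 minutes. The sort kept tumour cells that carried CD45, CD11B and GR1. The gate named no marker that tells injected cells from the recipient's own, and the share of reads from recipient cells was not measured. The sources used here do not give the kind of Trem2 mutation. Whether the 2 libraries of a genotype came from separate animals or cultures is not stated, so the p-values rest on a spread between libraries that may be technical.

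The Trem2 mutant libraries held 10306674 and 9820893 reads and the WT libraries 8037733 and 8077966. Trem2 had 191 and 195 reads in the Trem2 mutant libraries, against 406 and 477 in the WT libraries, with a log2 fold change of -1.14 (SE 0.125, edgeR quasi-likelihood test, adjusted p = 0.00157). Other features of the libraries also differed. Xist, the noncoding RNA of X inactivation, had 6928 and 9117 reads in Trem2 mutant libraries and 2 and 3 in WT libraries. The Y-linked genes Kdm5d, Uty, Eif2s3y and Ddx3y were read in all 4 libraries and fell in the mutant ones, with log2 fold changes of -2.74, -1.42, -0.68 and -0.43 (edgeR adjusted p between 3.29e-05 and 0.0456). Kdm5d had 51 and 55 reads in Trem2 mutant libraries and 374 and 365 in WT libraries, and Ddx3y had 757 and 896 in mutant and 1030 and 1282 in WT libraries. The mutant libraries thus held reads of Xist and of Y-linked genes together, while the hosts were male. These Y-linked genes have relatives on the X chromosome that can share reads, the sex of the donors is not stated, and which cells the reads came from was not tested. Gm42418, a noncoding locus, held 13.9% and 0.418% of the reads in Trem2 mutant 1 and Trem2 mutant 3, against 1.04% and 0.258% in WT 1 and WT 2. Xist and the Y-linked genes named here separated the genotypes without overlap. Any effect of the sex of the cells thus cannot be told apart from that of genotype in these 4 libraries. The part of these differences in the results that follow was not tested.

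The 7 genes lie within 320 kb of mouse chromosome 19 (GRCm38, positions 11321039 to 11640851), in the order Ms4a7, Ms4a4a, Ms4a4c, Ms4a6c, Ms4a6b, Ms4a6d and Ms4a3. All are annotated as protein-coding. Ms4a4a, Ms4a4c, Ms4a6c and Ms4a6b are read from the plus strand and the other 3 from the minus strand. Ms4a6b, Ms4a6c and Ms4a6d are close relatives. Over their longest open reading frames, 85.3% of aligned bases were identical between Ms4a6b and Ms4a6c, 81.3% between Ms4a6b and Ms4a6d, and 79.1% between Ms4a6c and Ms4a6d. Ms4a4a and Ms4a4c were 68.3% identical. All other pairs lay between 57.9% and 64.2%.

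The DNA just before the RefSeq starts of Ms4a6c and Ms4a6b shows the same kinship. The 250 bases before the annotated start of each gene, from RefSeq on GRCm38.p6, are printed here because Ms4a6c is the one member whose change passed the test and Ms4a6b is its nearest relative. The windows are chr19:11469118-11469367 for Ms4a6c and chr19:11518309-11518558 for Ms4a6b, both on the plus strand. GENCODE M21, used for all other positions here, starts Ms4a6c at 11469366 and Ms4a6b at 11516512. The Ms4a6b window thus lies inside the gene as GENCODE places it. Capitals mark the longest run of letters that the 2 windows share, which is 48 bases long.
Ms4a6c: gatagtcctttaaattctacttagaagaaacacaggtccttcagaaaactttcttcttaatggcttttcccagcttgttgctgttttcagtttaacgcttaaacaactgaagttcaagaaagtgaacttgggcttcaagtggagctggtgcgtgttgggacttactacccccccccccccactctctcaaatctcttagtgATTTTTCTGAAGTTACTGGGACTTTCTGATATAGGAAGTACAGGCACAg
Ms4a6b: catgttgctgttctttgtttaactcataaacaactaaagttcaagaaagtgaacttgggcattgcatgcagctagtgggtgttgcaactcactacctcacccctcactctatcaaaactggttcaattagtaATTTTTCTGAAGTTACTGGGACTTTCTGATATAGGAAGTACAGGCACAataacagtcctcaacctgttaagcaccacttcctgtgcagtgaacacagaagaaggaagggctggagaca
The shared run ends 1 base before the end of the Ms4a6c window and 70 bases before the end of the Ms4a6b window. Ms4a7, which has 2 annotated starts, and Ms4a6d, for which no RefSeq window was at hand, were left out of the pairs. Among the other 9 pairs of members, the longest shared run was 12 bases or shorter. The shared run holds the letters AGGAAGT, a core that factors of the ETS family can bind. These 7 letters, on either strand, occur in 7.69% of all 32841 RefSeq windows of this length and in 2 of 7 member windows, those of Ms4a6c and Ms4a6b. Of the 7 member windows, 2 are of Ms4a7 and none is of Ms4a6d, which was not searched. The letters were chosen after the windows had been seen. As they lie in the shared run, a match in both windows was given in advance, so 2 of 7 cannot be weighed against 7.69%. The Ms4a6b window holds another match outside the run, which starts 43 bases before the end of the window. The longer PU.1 core GAGGAAGT, the interferon response core (GAAA, any 2 bases, GAAA) and the C/EBP motif TTNNGCAA, searched on both strands, were in 0 of 7 member windows. They were in 2.44%, 2.98% and 9.57% of all windows. A match is a description of letters and does not show that a factor binds.

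For most members, annotated sequence was theirs alone. Of all 75-base words of a member's annotated transcripts, 0% in Ms4a3, Ms4a4a and Ms4a7 occurred in transcripts of another gene. The share was 0.408% in Ms4a6d, 0.632% in Ms4a6b and 3.78% in Ms4a4c, whose shared words were those of Ms4a4b. Ms4a6c was the exception, with 47.7%, or 943 of its 1976 words. All 943 occurred in BE692007, and some of them also in Prdm11 (35 words) and in Ms4a6b (22 words). Ms4a6c overlaps BE692007, a noncoding gene on the opposite strand, over 1088 of its 2050 exonic bases, or 53.1%. Whether reads were counted by strand is not stated in the sources used here, so reads of Ms4a6c and BE692007 cannot be told apart with certainty.

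Whether the members differ between the genotypes was the question asked of the counts. Ms4a6c rose in Trem2 mutant libraries, and the other 6 members did not pass the test. Of all 14239 genes tested, 13.2% were called in either direction and 9.55% were called higher (edgeR quasi-likelihood test, adjusted p below 0.05). Among the 7 members, 1 was called (14.3%), a share near that of all genes. DESeq2 called 8.86% of all genes (7.47% higher) and limma-voom 12.6% (9.3% higher), and each called 1 member, again Ms4a6c. All 7 fold changes were above 0, as were 47.3% of those of all genes tested. The median log2 fold change was 0.85 in the members, beside -0.02 over all genes tested. With library totals as the only scaling, the median of the members was 0.45 and that of all genes -0.40, and the fold changes of Ms4a6d and Ms4a4c were below 0. Both Trem2 mutant libraries lay above both WT libraries for 6 of 7 members, and for 28.9% of all genes tested. Among the 6 was Ms4a3, where Trem2 mutant 3 was level with WT 2 (45 against 44 reads). This order was not counted with library totals as the only scaling. In bulk samples, a change in the number of cells that express a gene and a change in RNA per cell cannot be told apart.

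**Figure D1:**
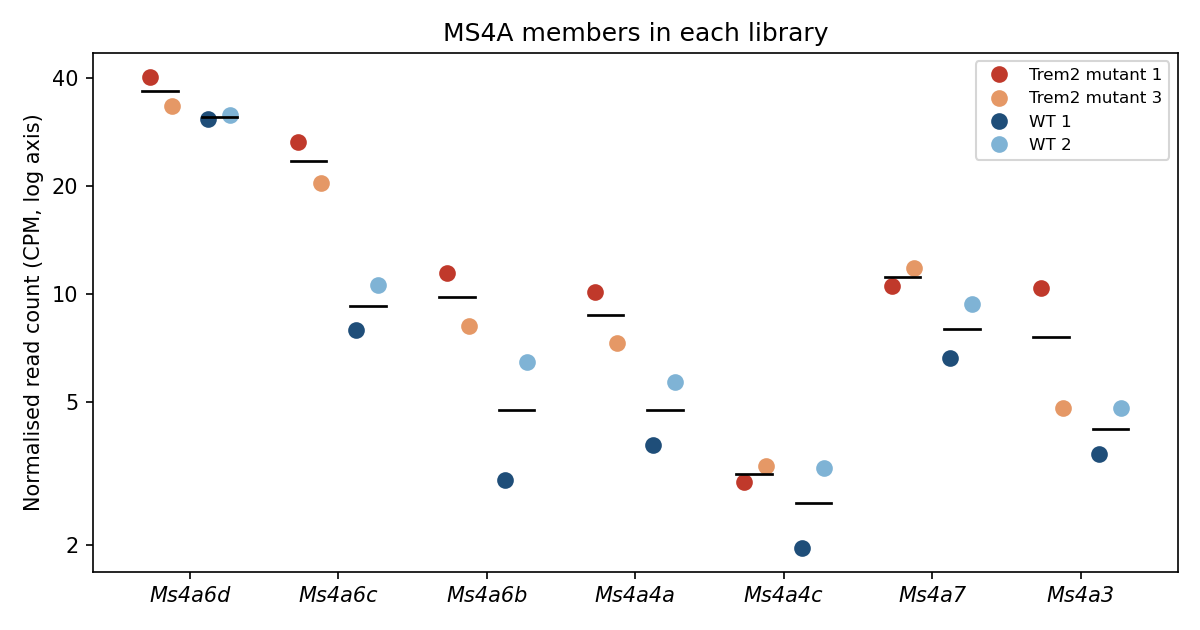
Normalised read count (CPM, log axis) of each MS4A member in each library; points are single libraries, with the 2 Trem2 mutant libraries left of the 2 WT libraries, and bars are the means of 2 libraries. The groups are farthest apart in Ms4a6c (20.4 and 26.6 CPM in the mutant libraries, against 7.94 and 10.6 CPM in WT), and they overlap in Ms4a4c.

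Ms4a6c (ENSMUSG00000079419, chromosome 19, 11469366 to 11482192) is a mouse relative of human MS4A6A, a gene of monocytes and macrophages at the locus linked to soluble TREM2. It had 222 and 190 reads in Trem2 mutant 1 and Trem2 mutant 3, against 73 and 97 reads in WT 1 and WT 2. Its normalised read count, in CPM scaled by the trimmed mean of M values (TMM), was 26.6 and 20.4 in the mutant libraries and 7.94 and 10.6 in the WT libraries. The groups did not overlap, and the lower mutant library was above the higher WT library. The mean was 23.5 ± 4.37 CPM in Trem2 mutant and 9.28 ± 1.89 CPM in WT libraries (SD, n = 2 each). The fitted fold was 2.53, a log2 fold change of 1.34 (SE 0.200, 95% interval 0.87 to 1.80, edgeR adjusted p = 0.00538).

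The change in Ms4a6c passed the test under all 14 alternatives that were run, with adjusted p between 4.76e-05 and 0.0378. With 1 library left out, its log2 fold change lay between 1.14 and 1.56. Its overlapping antisense gene BE692007 had 109 and 98 reads in the mutant libraries and 49 and 71 in the WT libraries, with a log2 fold change of 0.84 (SE 0.239) that did not pass (adjusted p = 0.0568). Counted as 1 gene, the pair had 331 and 288 reads in the mutant libraries and 122 and 168 in the WT libraries. The log2 fold change of the summed pair, which is 1 of the 14 alternatives, was 1.15 (SE 0.187, edgeR adjusted p = 0.00745) and passed.

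Ms4a6b (11516512 to 11531256) stands next to Ms4a6c among the members on the chromosome. It had 96 and 76 reads in the Trem2 mutant libraries, against 28 and 59 in the WT libraries. In CPM these were 11.5 and 8.17 in mutant libraries and 3.05 and 6.46 in WT libraries. The groups did not overlap, but WT 2 lay well above WT 1. Its fitted log2 fold change of 1.04 (SE 0.350, 95% interval 0.23 to 1.85) did not pass (edgeR adjusted p = 0.0922). Without WT 2 it was 1.68 and passed (adjusted p = 0.0343), and without Trem2 mutant 3 it was 1.29 and passed (adjusted p = 0.0136). Without WT 1 it was 0.60 (adjusted p = 0.369).

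Ms4a6d (11586604 to 11604849), another relative of human MS4A6A, had the most reads of the members. It had 338 and 312 reads in Trem2 mutant libraries and 284 and 289 in WT libraries. In CPM it had 40.5 and 33.5 in the mutant libraries and 30.9 and 31.6 in the WT libraries, so the lower mutant library was just above WT. Its log2 fold change was 0.24 (SE 0.123, 95% interval -0.04 to 0.53) and did not pass (adjusted p = 0.233). Whether Ms4a6d and Ms4a6c differ in their change was not tested. Without Trem2 mutant 3 the log2 fold change was 0.39 and passed (adjusted p = 0.0354), and without Trem2 mutant 1 it was 0.11 (adjusted p = 0.645).

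**Figure D2:**
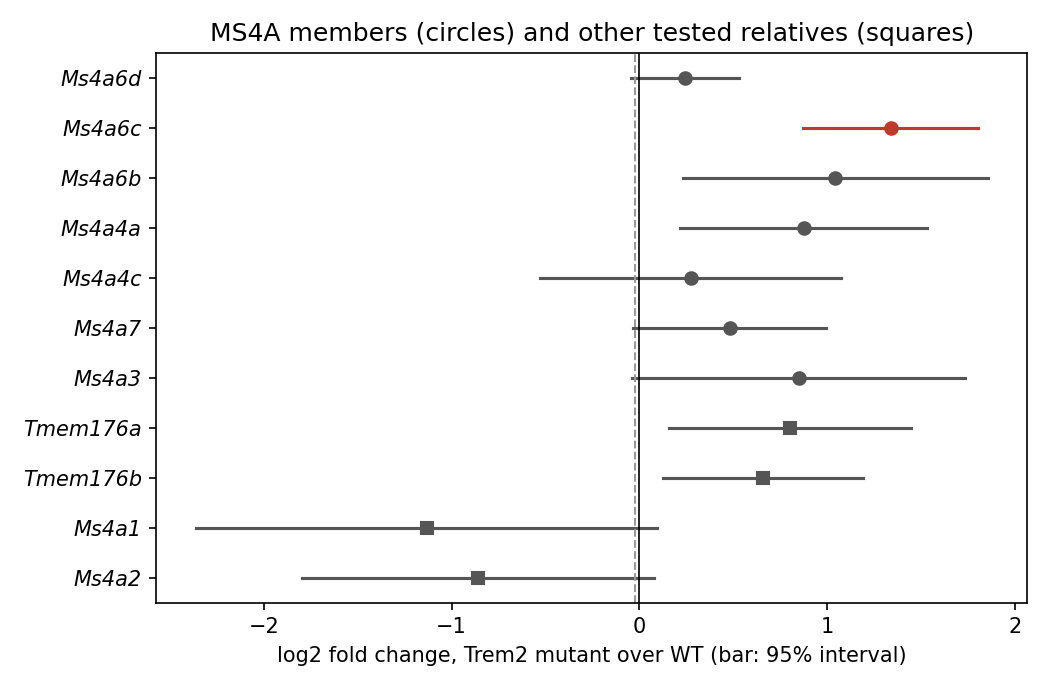
log2 fold change of Trem2 mutant over WT for the 7 members (circles) and for 4 other tested genes of the family and its relatives (squares), with 95% intervals from the edgeR fit; the dashed line is the median of all genes tested (-0.02). Ms4a6c, in red, is the one gene shown with an adjusted p below 0.05, at 1.34, and the members all lie right of 0 while Ms4a1 and Ms4a2 lie left of it.

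Ms4a4a (11375523 to 11392790) encodes a macrophage protein that in human macrophages lies with TREM2 and that also pairs with the beta-glucan receptor dectin-1, the product of Clec7a. It had 85 and 68 reads in the Trem2 mutant libraries, against 35 and 52 in the WT libraries. These corresponded to 10.2 and 7.31 CPM in mutant libraries and 3.81 and 5.69 CPM in WT libraries. The groups did not overlap, but the spread within each was wide. The log2 fold change of 0.87 (SE 0.283, 95% interval 0.22 to 1.53) did not pass (edgeR adjusted p = 0.0838). It passed without Trem2 mutant 3, at 1.12 (adjusted p = 0.0158), and was 0.61 without WT 1 (adjusted p = 0.375) and 0.63 without Trem2 mutant 1 (adjusted p = 0.228).

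Ms4a4c (11404770 to 11427246), which neighbours Ms4a4a, was the member with the fewest reads. It had 25 and 31 reads in Trem2 mutant libraries and 18 and 30 in WT libraries, or 2.99 and 3.33 CPM against 1.96 and 3.28 CPM. The groups overlapped. Its log2 fold change was 0.27 (SE 0.345, adjusted p = 0.638), and its 95% interval of -0.53 to 1.07 holds changes in both directions.

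Ms4a7 (11321039 to 11336146) is a gene of macrophages, including those at the borders of the brain. It had 88 and 110 reads in Trem2 mutant libraries and 61 and 86 in WT libraries. In CPM these were 10.5 and 11.8 in mutant libraries, against 6.64 and 9.41 in WT libraries, without overlap. A log2 fold change of 0.48 (SE 0.220, 95% interval -0.03 to 0.99) did not pass (adjusted p = 0.190), nor did it with any single library left out.

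Ms4a3 (11629496 to 11640851) marks granulocyte-monocyte progenitors of the bone marrow in mice and is low in mature myeloid cells. It had 87 and 45 reads in Trem2 mutant 1 and Trem2 mutant 3, against 33 and 44 reads in WT 1 and WT 2. In CPM these were 10.4 and 4.84 in the mutant libraries, against 3.59 and 4.82 in the WT libraries. Trem2 mutant 1 was high, and Trem2 mutant 3 was level with WT 2. Its log2 fold change of 0.85 (SE 0.382, 95% interval -0.04 to 1.73) did not pass (edgeR adjusted p = 0.183). It was 0.21 without Trem2 mutant 1 (adjusted p = 0.759) and 1.33 without Trem2 mutant 3 (adjusted p = 0.00487), so 1 library decided its value.

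**Figure D3:**
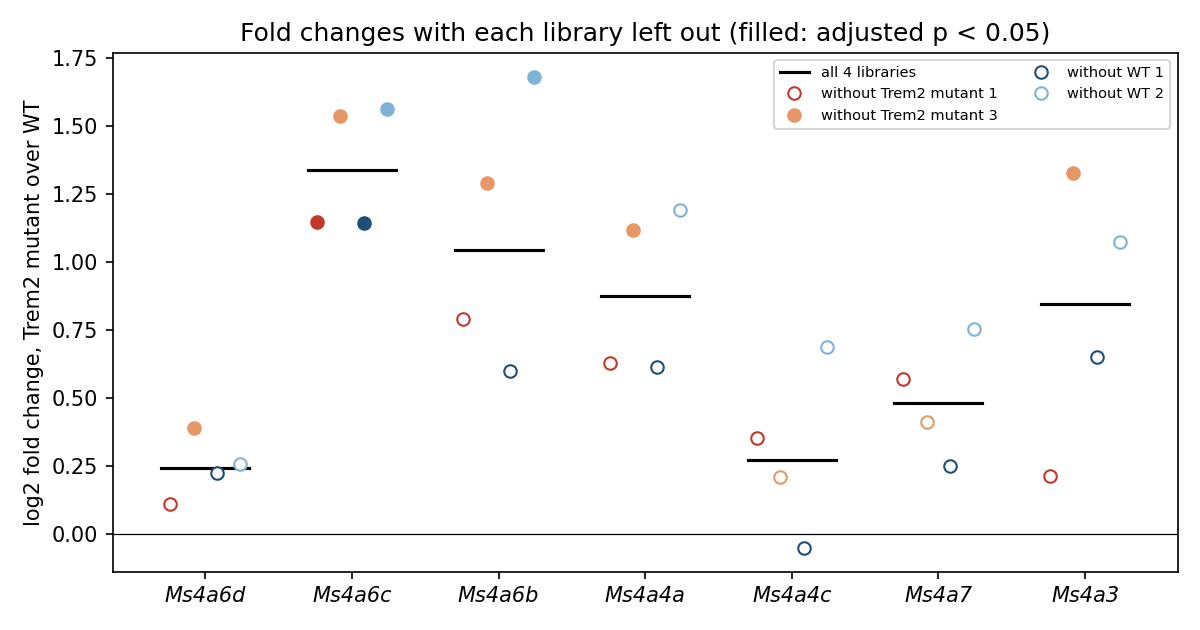
log2 fold change of Trem2 mutant over WT for each member with all 4 libraries (black line) and with 1 library left out (points; filled where the adjusted p was below 0.05). Points for Ms4a6c are all filled, from 1.14 to 1.56, and the value of Ms4a3 ranges from 0.21 without Trem2 mutant 1 to 1.33 without Trem2 mutant 3.

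Between genes, levels were compared per length, as CPM divided by the kilobases of the union of a gene's exons (RPKM). Ms4a6d was highest in both genotypes, at 21.3 ± 2.84 RPKM in Trem2 mutant and 18.02 ± 0.302 RPKM in WT libraries (SD, n = 2 each). Ms4a6c followed in the mutant libraries at 11.5 ± 2.13 RPKM, ahead of Ms4a4a at 10.5 ± 2.43 RPKM, and the ranges of these 2 genes overlapped. In the WT libraries Ms4a4a followed at 5.68 ± 1.59 RPKM, ahead of Ms4a6c at 4.53 ± 0.923 RPKM, again with overlapping ranges. Ms4a3, Ms4a7, Ms4a6b and Ms4a4c were lower, between 1.81 and 4.05 RPKM in the mutant and between 1.06 and 2.23 RPKM in the WT libraries. In each genotype, every neighbouring pair among these 4 genes had overlapping ranges.

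Ms4a6d made up 38.5% and 41.1% of the summed RPKM of the 7 members in Trem2 mutant 1 and Trem2 mutant 3, against 56.7% and 47.7% in WT 1 and WT 2. The share of Ms4a6c was 21.4% and 21.2% in the mutant libraries and 12.3% and 13.6% in the WT libraries. Both shares separated the genotypes without overlap, but shares of a sum depend on each other. In TMM-scaled CPM, Ms4a6d itself was not lower in the mutant libraries (40.5 and 33.5, against 30.9 and 31.6 in WT). In the annotation, the longest transcript of Ms4a6b, of Ms4a7 and of Ms4a3 is not a protein-coding one. With the longest protein-coding transcript as length, a choice made after seeing the data, Ms4a6d was again highest in both genotypes (26.1 RPKM in mutant and 22.0 RPKM in WT libraries), but the order below it changed. Ms4a7 had 7.09 RPKM in mutant and 5.09 RPKM in WT libraries, where it stood just above Ms4a6c at 5.04 RPKM with overlapping ranges. Ms4a3 had 7.55 RPKM in mutant libraries, where its range overlapped that of Ms4a4a, and 4.16 RPKM in WT libraries.

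**Figure D4:**
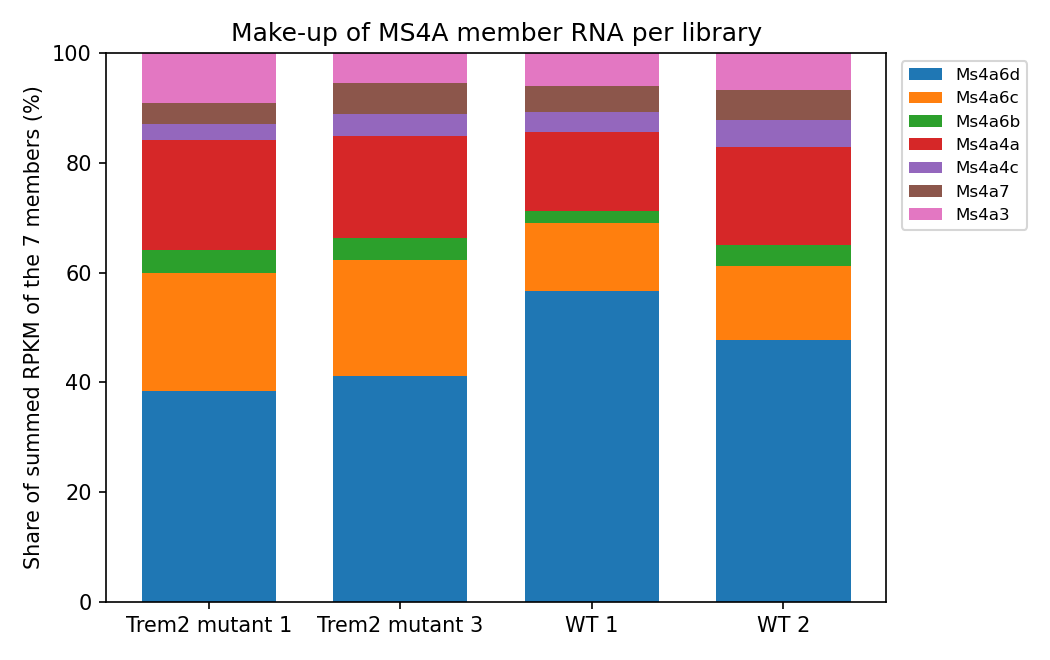
Share of each member in the summed RPKM of the 7 members, in percent, for each library, with Trem2 mutant libraries left of WT. The share of Ms4a6d is smaller in the mutant libraries (38.5% and 41.1%) than in WT (56.7% and 47.7%), and that of Ms4a6c is larger (21.4% and 21.2%, against 12.3% and 13.6%). Shares within a library depend on each other, so a smaller share of Ms4a6d is not a lower level.

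Libraries of 1 genotype also differed in the members. WT 2 was above WT 1 in all 7 members, and Trem2 mutant 1 was above Trem2 mutant 3 in 5 of 7, the exceptions being Ms4a7 and Ms4a4c. The summed normalised count of the members was 112.7 and 89.4 CPM in Trem2 mutant 1 and Trem2 mutant 3, against 57.9 and 71.9 CPM in WT 1 and WT 2. Both orders were seen together in 5 of 7 members, in 13 of 19 macrophage markers and in 7 of 11 tested progenitor and primary granule genes. The same held for 3 of 6 dendritic cell, 7 of 15 monocyte, 5 of 17 mature neutrophil and 1 of 7 mast cell and basophil markers, and for 0 of 8 B-lineage, 0 of 6 eosinophil and 0 of 6 fibroblast markers. Over all genes tested they were seen together in 26.1%.

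Genes that share a stage with Ms4a3 were set beside it. Of 11 tested genes of granulocyte-monocyte progenitors and primary granules, 5 rose and 0 fell in Trem2 mutant libraries, with a median log2 fold change of 1.26. Elane, which encodes neutrophil elastase, had 81 and 37 reads in Trem2 mutant 1 and Trem2 mutant 3, against 7 and 5 reads in WT 1 and WT 2, with a log2 fold change of 3.35 (SE 0.561, adjusted p = 0.00862). Cebpe, a transcription factor gene of granulocyte maturation, had 30.7 and 17.2 CPM in the mutant libraries and 10.1 and 10.6 CPM in WT libraries. Its log2 fold change of 1.20 (adjusted p = 0.0249) did not pass without WT 1 (1.17) or without WT 2 (1.23). As with Ms4a3, Trem2 mutant 1 was the higher of the mutant libraries for both genes. Without WT 1, 2 of the progenitor genes rose, without WT 2, 3 rose, and without Trem2 mutant 3, 9 rose. The summed level of the list was 276.6 and 207.1 CPM in mutant libraries and 173.6 and 182.8 CPM in WT libraries. Its part in the value of Ms4a3 was not tested.

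Markers of macrophages, the cells best known for Ms4a4a and Ms4a7, went both ways. Of 19 tested, 5 rose and 1 fell, with a median log2 fold change of 0.84. Fcgr1, the high-affinity IgG receptor gene, had 73.3 and 58.6 CPM in the mutant libraries, against 36.6 and 35.5 CPM in WT libraries (log2 fold change 0.87, SE 0.125, adjusted p = 0.00453). Apoe, a lipid carrier gene, had a log2 fold change of 0.91 (SE 0.183, adjusted p = 0.0172) that did not pass without WT 1 (0.66, adjusted p = 0.0765). Gpnmb, a glycoprotein gene of lipid-laden macrophages, fell, with 529 and 602 CPM in mutant libraries and 1036 and 978 CPM in WT libraries. Its log2 fold change was -0.83 (SE 0.104, adjusted p = 0.00265). Without WT 1, 1 marker rose and 1 fell, and without Trem2 mutant 3, 11 rose and 2 fell. Scaled by library totals alone, 6 rose and 5 fell. The summed level of the list was 2956 and 2711 CPM in the mutant libraries and 3294 and 3353 CPM in the WT libraries, and no marker of it was at 0 in any library. Genes with many reads, such as Gpnmb, weigh most in this sum. Of the 19 markers, 14 had a log2 fold change above 0, so the lower sum does not describe most of them. The part of macrophage number in the members' values was not tested.

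**Figure D5:**
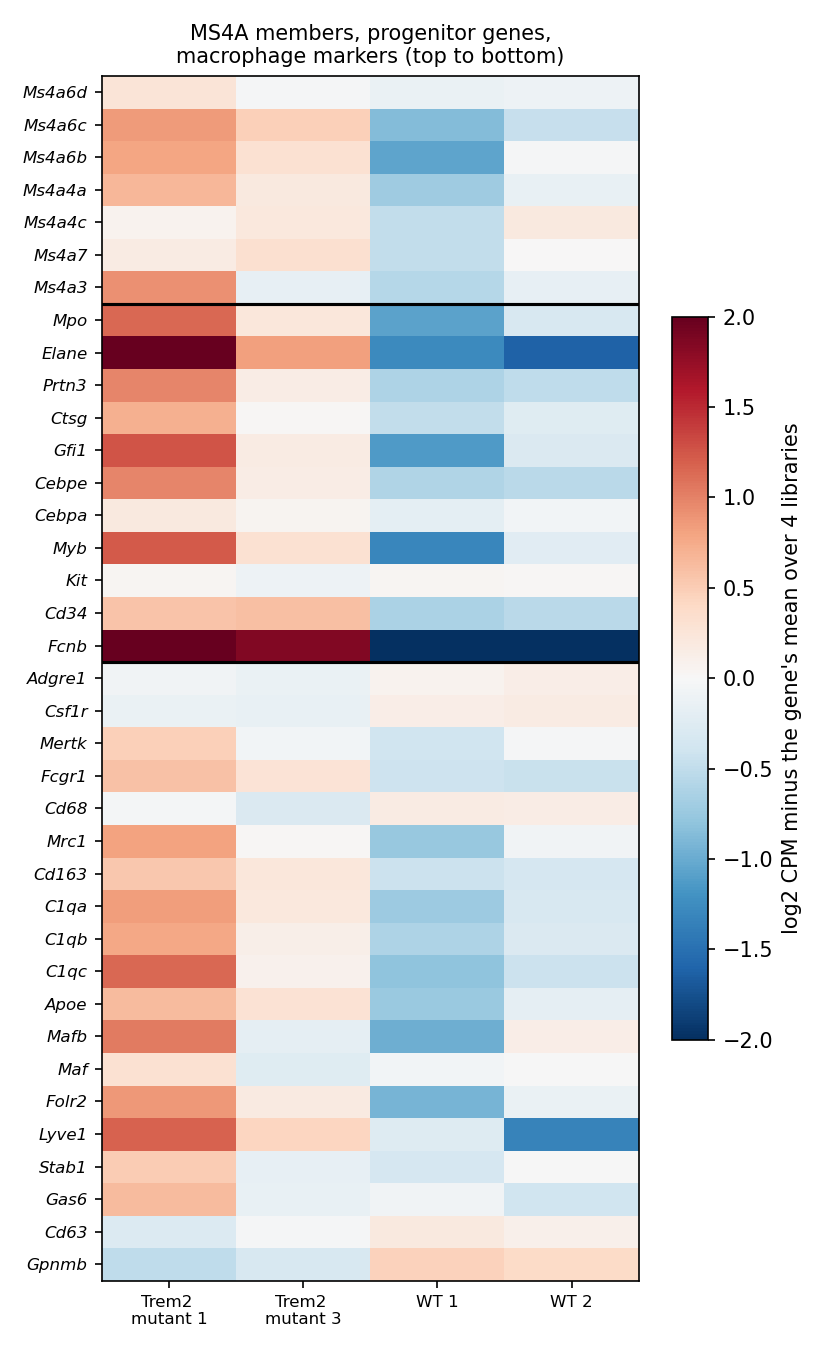
log2 CPM of each gene minus its mean over the 4 libraries, for the MS4A members (top), 11 tested progenitor and primary granule genes (middle) and 19 macrophage markers (bottom), with Trem2 mutant libraries left of WT; the scale is capped at 2 in each direction. WT 2 lies above WT 1 and Trem2 mutant 1 above Trem2 mutant 3 in 5 of 7 members, 7 of 11 progenitor genes and 13 of 19 macrophage markers.

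Markers of other cell types also differed. Of 17 mature neutrophil markers, 16 rose and 0 fell (median log2 fold change 3.06), and their summed level was 36108 and 30354 CPM in Trem2 mutant libraries and 8579 and 8490 CPM in WT libraries. All 6 tested eosinophil markers rose (summed level 211 and 239 CPM in mutant, 101 and 99.8 CPM in WT libraries), or 3 without WT 1 and 3 without WT 2. Of these, Ear1 was at 0 in both WT libraries. Of 15 monocyte markers, 10 rose and 0 fell (median 0.61), with Plac8 at 40.7 and 43.8 CPM in mutant and 18.8 and 18.9 CPM in WT libraries. Their summed level was 14672 and 14900 CPM in mutant libraries and 7413 and 8033 CPM in WT libraries, and 3 rose without WT 1. Fibroblasts lack CD45, which the sort required, yet of 6 tested fibroblast markers 3 collagen genes rose, among them Col1a1 at 204 and 172 CPM in the mutant and 80.7 and 50.9 CPM in WT libraries. The summed level of that list was 447 and 403 CPM in mutant and 159 and 111 CPM in WT libraries. Which cells these reads came from, and their part in the members' values, was not tested.

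The rest of the family was sparse. Of 12 further genes named Ms4a and the related Tmem176a and Tmem176b, 7 were in the table and 4 passed the filter on low counts, and 0 of these 4 were called by edgeR, DESeq2 or limma-voom. At an unadjusted p below 0.05 in edgeR there were 2, Tmem176a and Tmem176b. With library totals as the only scaling, Ms4a1 and Ms4a2 were called lower.

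Ms4a1 (CD20) had 3 and 11 reads in Trem2 mutant libraries and 15 and 17 in WT libraries, with a log2 fold change of -1.13 (SE 0.529, adjusted p = 0.197). Ms4a2 had 12 and 8 reads in mutant libraries and 20 and 18 in WT libraries (log2 fold change -0.86, SE 0.404, adjusted p = 0.199). For both genes the mutant libraries lay below WT without overlap, at 20 reads or fewer in every library. The share of all genes with that order was not counted. Of 8 B-lineage markers, Cd22 fell (log2 fold change -0.89, adjusted p = 0.0345), a call that ended without WT 1 (-0.80), without WT 2 (-0.97), without Trem2 mutant 3 (-0.63) and with DESeq2 (-0.87). The B-lineage list summed to 38.6 and 29.6 CPM in mutant libraries and 54.3 and 52.2 CPM in WT libraries. Of 7 tested mast cell and basophil markers, 0 were called by edgeR, DESeq2 or limma-voom, and 1 had an unadjusted p below 0.05 in edgeR. Of the T and NK cell markers 1, Cd3d, was tested and it was not called by any of these tools, with 0 at an unadjusted p below 0.05.

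Tmem176a and Tmem176b encode membrane proteins of dendritic cells and macrophages related to the MS4A family and lie on another chromosome. Tmem176a had 38 and 48 reads in mutant libraries and 23 and 28 in WT libraries (log2 fold change 0.80, SE 0.277, adjusted p = 0.100). Tmem176b had 65 and 64 reads in mutant libraries and 40 and 45 in WT libraries (log2 fold change 0.66, SE 0.229, adjusted p = 0.102). In both genes the mutant libraries lay above WT without overlap, as in 28.9% of all genes tested. Of 6 tested dendritic cell markers, 0 were called by edgeR, DESeq2 or limma-voom, and 2 had an unadjusted p below 0.05 in edgeR.

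Ms4a4d, Ms4a8a and Ms4a14 were below the filter. Ms4a4d, which lies between Ms4a6b and Ms4a6d, had 4 and 9 reads in mutant libraries and 0 and 1 in WT libraries. The ratio of their sums, 13 against 1 read, was 13.5 (95% interval 2.03 to 574, exact, counting error only), so its size is poorly known. Ms4a8a had 11 reads in all in the mutant and 6 in the WT libraries, and Ms4a14 had 10 and 10.

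The neighbourhood of the members was examined gene by gene. From 200 kb before Ms4a7 to 200 kb after Ms4a3, the annotation holds 38 genes, of which 16 were in the table and 12 were tested. Of these, 1 was called, Ms4a6c. Beside genes of the family, BE692007, Mrpl16 and Stx3 were tested. Mrpl16, a mitochondrial ribosomal protein gene, had 61 and 75 reads in mutant libraries and 77 and 73 in WT libraries (log2 fold change -0.09, SE 0.196). Stx3, a membrane fusion gene, had 246 and 267 reads in mutant libraries and 331 and 309 in WT libraries (log2 fold change -0.26, SE 0.106, adjusted p = 0.143). Gm6501 and Gm8369 were in the table below the filter.

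On the receptor side, Trem2 was the one gene of 7 that was called, and it fell. The list held Trem2, its adaptor gene Tyrobp, the Fc receptor gamma chain gene Fcer1g, the kinase gene Syk, the sheddase genes Adam10 and Adam17, whose products cut TREM2 from the cell surface, and Clec7a. Tyrobp had 816 and 787 CPM in mutant libraries and 702 and 671 CPM in WT libraries, with a log2 fold change of 0.22 (SE 0.0914, adjusted p = 0.148). Adam10 had a log2 fold change of 0.18 (SE 0.0775, adjusted p = 0.169) and Adam17 of -0.15 (SE 0.0872, adjusted p = 0.279). Clec7a, the partner of Ms4a4a, had 1039 and 1111 CPM in mutant libraries and 1299 and 1241 CPM in WT libraries (log2 fold change -0.24, SE 0.1001, adjusted p = 0.154). The values of Fcer1g (0.20) and Syk (0.25) were of similar size. Under scaling by library totals, Trem2, Adam17 and Clec7a were called lower, and Adam10, Tyrobp, Fcer1g and Syk turned below 0. Soluble TREM2 is a protein and was not measured here.

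The genes whose levels ran closest to Ms4a6c over the 4 libraries were Slc27a4, Sp140 and Dennd2a. Closeness was the Euclidean distance between log2 CPM profiles, each centred on its own mean, over 4 libraries and 9191 protein-coding genes with at least 5 CPM on average. Slc27a4, a fatty acid transport gene, had a distance of 0.0554, with 264 and 210 CPM in mutant libraries and 84.4 and 108 CPM in WT libraries. Sp140, a nuclear body gene, had a distance of 0.0896 and Dennd2a one of 0.0994, beside a median of 1.42 over all candidates. Of the candidates, 20 lay within 0.25. A profile over 4 libraries leaves little room to tell genes apart, and these genes were picked for their likeness.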

How the data were processed

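RNA-seq counts were analysed for 2 Trem2 mutant and 2 WT libraries. The table deposited by the authors gives whole-number read counts for each Ensembl gene ID, not normalized. Libraries were made from total RNA after rRNA depletion and run on a NextSeq instrument, per the labels' protocols. Per the submitters' processing notes, the tools were FastQC, STAR 2.5.2a and DESeq2, on GRCm38 (mm10). Which program counted the reads, whether by strand and on which annotation is not stated in the sources used here. The lowest row sum over the 4 libraries was 11 reads. Of the 17476 IDs, 17422 matched GENCODE M21, used for names, positions and lengths. The number 3 of one mutant column is in no sample title, so the column was taken as mutant by its name alone. Scaled by library totals, replicate counts differed beyond counting noise (ratio of the median squared difference to its counting value 7.84 in mutant and 2.10 in WT pairs). TMM scaling was not used for these ratios, and Gm42418 held 13.9% and 0.418% of the totals in Trem2 mutant 1 and Trem2 mutant 3. The ratios thus mix offsets in scaling with spread between replicates, and the 2 pairs cannot be compared by them. Each library counted as 1 sample.

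Counts were filtered with filterByExpr (14239 genes left), scaled with TMM and tested in edgeR 4.0.16 (R 4.3.3) with glmQLFit and glmQLFTest, two-sided, genotype as the only term, Benjamini-Hochberg adjustment over all genes at 0.05. The SE is the absolute log2 fold change over the square root of F, and intervals use 2 residual and 5.71 prior degrees of freedom. The script was tested on simulated data. Alternatives were RLE, upper-quartile and total scaling, no filter, a stricter one (10 reads in each of 2 libraries, mean 1 CPM), DESeq2 1.42.0, limma-voom (limma 3.58.1), the bias-adjusted quasi-likelihood form, noncoding and mitochondrial genes left out, and each library left out. Lengths, and the summing of Ms4a6c with BE692007, were alternatives partly chosen after seeing the data. The members and the 13 gene lists were chosen with earlier results of these data known. Named were the members, the other family genes, the TREM2 list, up to 3 genes per further list with the lowest p, the 3 genes nearest to each called member and genes within 200 kb; Xist, Gm42418, Kdm5d, Uty, Eif2s3y and Ddx3y were added as library checks. Counting intervals (95%) cover counting error only. A floor of 3 reads is 0.322 to 0.359 CPM.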

Additional observations from a re-analysis of the deposited data

How the results depend on the processing

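Ms4a6c kept its direction and its call under all 14 alternatives, the sum with BE692007 among them. Over the 7 members, 84 of 92 single-gene alternatives kept direction and side of the threshold. Without one library at a time, between 1 and 5 members were called (2 without WT 2, Ms4a6b and Ms4a6c; 5 without Trem2 mutant 3, also Ms4a3, Ms4a4a and Ms4a6d), between 581 and 3002 genes in all, and between 28 and 69 list genes, beside 1, 1873 and 49 with all libraries. With library totals alone, 5015 genes were called, 12.96% of them higher instead of 72.6%. Under that scaling the log2 fold changes of Ms4a4c (-0.10), Ms4a6d (-0.14), Adam10 (-0.19), Fcer1g (-0.18), Syk (-0.13) and Tyrobp (-0.15) turned below 0. With one library left out, that of Ms4a4c lay between -0.052 (without WT 1) and 0.689 (without WT 2). DESeq2 called 1261 genes. The cause of these changes was not tested. The summed RPKM of the members was 53.8 in mutant and 34.8 in WT libraries. It was 69.5 in mutant and 45.3 in WT libraries per longest protein-coding transcript. It was 61.6 in mutant and 40.4 in WT libraries per longest transcript, 46.9 in mutant and 39.7 in WT with library totals, and 62.7 in mutant and 40.5 in WT without noncoding and mitochondrial genes. The gap between the genotypes was thus narrower with library totals. Apart from Ms4a6c and Ms4a6d, members had 18 to 110 reads per library, and their 95% intervals were correspondingly wide. No paired analysis was possible because the mutant and WT columns share only the number 1.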
